A study of Homo sapiens with 24 samples.

Results

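The 10 genes described here are immediate early genes: NR4A1, NR4A2, NR4A3, EGR1, EGR2, EGR3, IER2, ZFP36, ZFP36L1 and SIK1. They are the rows of the deposited table, which holds 26450 genes, whose symbol is in that set, and all 10 had a row. RNA was sequenced from 2 human lines, PANC-1 (labelled epithelial, from pancreatic duct) and HEK293T (a transformed kidney line), each in 4 culture formats with 3 libraries per format. The formats were capillary containers rotated about 2 axes (DRCC) at 30 rpm, DRCC at 1 rpm, AggreWell microwells, and flat 2D culture. The labels name no drug, allele or time point for the 8 groups, so within a line the format is the labelled difference. The set was selected on these FPKM values, with the differences of DRCC libraries from AggreWell and 2D libraries already known. Those differences are therefore given as values without a test, while AggreWell against 2D, 30 rpm against 1 rpm, and the difference between the lines in these 2 comparisons were tested.

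Immediate early genes are transcribed within minutes of a stimulus without new protein synthesis, through factors that are already present in the cell, such as SRF with its ETS partners and CREB. Most of their mRNAs and proteins are short-lived. The NR4A genes encode orphan nuclear receptors and the EGR genes zinc-finger transcription factors. IER2 encodes a nuclear regulator, and ZFP36 and ZFP36L1 encode proteins that bind AU-rich elements in mRNAs and promote their decay. SIK1 encodes a kinase that holds the CREB coactivators of the CRTC family in the cytoplasm.

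The libraries held 32555333 to 39556154 fragments, and values are FPKM (fragments per kilobase of transcript and unit of library depth). In bulk RNA, fewer cells that express a gene and less of its RNA per cell cannot be told apart. The share of fragments from the 13 mitochondrially encoded genes moved with the format, at 1.6%, 2.37%, 4.28% and 4.33% in PANC-1 at 30 rpm, at 1 rpm, in AggreWell and in 2D. In HEK293T it was 4.16%, 3.42%, 3.49% and 4.76% in the same order. Its part in the results below was not tested beyond leaving these genes out. The 8 PANC-1 markers summed to 2524 to 3138 FPKM in the PANC-1 groups and to 33.5 to 86.9 FPKM in the HEK293T groups. The 7 measured HEK293T markers summed to 557 to 1243 FPKM in the HEK293T groups and to 134 to 195 FPKM in the PANC-1 groups, where CKB made up most of the sum. Of 10 measured markers of blood, endothelial and fibroblast cells, COL1A1 alone reached 1 FPKM in any group.

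The promoters of EGR1, SIK1, NR4A3, ZFP36L1, IER2 and ZFP36 are shown first, because immediate early genes are known for response elements close to their start. Those of NR4A1 and EGR2 were searched but are not printed. The sequences are the 250 bases before the RefSeq start on GRCh38.p14, read 5′ to 3′ on the strand of the gene. Capitals mark the cAMP response element (CRE) TGACGTCA, its core TGACG, and the CArG box bound by SRF. A core that lies on the opposite strand reads CGTCA as printed.

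EGR1, chr5:138465229-138465478, plus strand: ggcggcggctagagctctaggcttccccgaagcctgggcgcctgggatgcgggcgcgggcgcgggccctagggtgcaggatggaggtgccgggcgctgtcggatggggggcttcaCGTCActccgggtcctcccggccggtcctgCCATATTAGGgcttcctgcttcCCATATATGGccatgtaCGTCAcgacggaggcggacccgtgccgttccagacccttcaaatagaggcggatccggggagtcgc
SIK1, chr21:43427132-43427381, minus strand: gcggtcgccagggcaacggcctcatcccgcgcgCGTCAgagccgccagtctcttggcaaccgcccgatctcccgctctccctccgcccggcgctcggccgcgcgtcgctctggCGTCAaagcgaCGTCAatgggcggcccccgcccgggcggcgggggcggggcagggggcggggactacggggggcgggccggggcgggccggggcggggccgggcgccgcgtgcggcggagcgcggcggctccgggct
NR4A3, chr9:99821635-99821884, plus strand: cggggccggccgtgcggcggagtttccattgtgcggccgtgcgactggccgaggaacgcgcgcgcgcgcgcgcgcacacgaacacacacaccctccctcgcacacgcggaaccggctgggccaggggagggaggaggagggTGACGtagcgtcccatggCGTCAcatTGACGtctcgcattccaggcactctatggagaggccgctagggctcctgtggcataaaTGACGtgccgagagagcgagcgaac
ZFP36L1, the second of its starts, chr14:68793417-68793666, minus strand: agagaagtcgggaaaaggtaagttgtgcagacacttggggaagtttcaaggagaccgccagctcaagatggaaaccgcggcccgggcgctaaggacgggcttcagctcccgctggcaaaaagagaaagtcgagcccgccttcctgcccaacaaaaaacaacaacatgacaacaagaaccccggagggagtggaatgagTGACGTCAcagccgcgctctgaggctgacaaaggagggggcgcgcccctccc
IER2, chr19:13150161-13150410, plus strand: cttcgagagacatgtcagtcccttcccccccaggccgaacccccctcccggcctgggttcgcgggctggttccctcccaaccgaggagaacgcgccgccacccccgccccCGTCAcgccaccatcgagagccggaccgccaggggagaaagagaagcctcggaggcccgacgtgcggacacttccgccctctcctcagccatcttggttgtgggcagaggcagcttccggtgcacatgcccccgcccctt
ZFP36, chr19:39406597-39406846, plus strand: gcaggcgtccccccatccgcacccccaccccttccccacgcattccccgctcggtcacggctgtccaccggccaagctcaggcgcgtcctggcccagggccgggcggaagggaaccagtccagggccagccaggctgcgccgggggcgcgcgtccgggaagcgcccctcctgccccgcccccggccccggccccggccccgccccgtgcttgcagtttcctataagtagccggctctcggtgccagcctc

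Counting the start as base 1 and bases before it as negative, EGR1 held CArG boxes at -105 to -96 and at -83 to -74 and CRE cores at -135 to -131 and at -66 to -62. SIK1 held 3 CRE cores, at -217 to -213, -137 to -133 and -126 to -122, and NR4A3 held 4, the nearest at -25 to -21. ZFP36L1 held the full CRE at -52 to -45 from its second start, and a CRE core at -147 to -143 from its first. IER2 held a CRE core at -140 to -136, and none of the motifs searched was in the ZFP36 window. The windows of NR4A1 held 0 CRE cores and 0 CArG boxes, and an ETS core lay at -17 to -12 from its first start. Both strands were searched in windows of 300 bases, from 250 before to 50 after each start, and 8 of the 10 genes had at least 1 window (12 windows, as some genes have several starts); NR4A2 and EGR3 are named only. The CRE core, which also lies within the full CRE, was in 7 of the 12 windows, from 6 of the 8 genes. It was in 24.6% of all 35116 windows in the RefSeq table. Of the 12 windows, the full CRE was in 1 (1.85% of all windows) and the CArG box in 2, of EGR1 and EGR2 (1.29%). The EGR site GCGNGGGCG was in 4 (9.43%), the ETS core CCGGAA in 2 (17.2%), and the NR4A site AAAGGTCA in 0 (1.22%). These matches describe letters in the window and say nothing of binding in these cells.

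NR4A1 and NR4A2, the nuclear receptors Nur77 and Nurr1, stood far higher in both DRCC groups of PANC-1 than in either other format. NR4A2 had 61.9, 64.3 and 63.6 FPKM at 30 rpm, 69.7, 68.2 and 71.9 FPKM at 1 rpm, 1.01, 0.867 and 0.927 FPKM in AggreWell, and 0.736, 0.523 and 0.468 FPKM in 2D. No DRCC library overlapped either other format, and the mean was 109.9 times that of 2D at 30 rpm and 122 times at 1 rpm. NR4A1 had 18, 18.6 and 18.5 FPKM at 30 rpm, 11.4, 11.6 and 11.7 FPKM at 1 rpm, 0.781, 0.773 and 0.858 FPKM in AggreWell, and 0.34, 0.451 and 0.428 FPKM in 2D. The 4 formats did not overlap for NR4A1, whose mean was 45.2 times that of 2D at 30 rpm and 28.5 times at 1 rpm. On the log2(FPKM + 1) scale, which understates changes of weak genes, these differences from 2D were 3.79 ± 0.04 and 3.16 for NR4A1 and 5.35 ± 0.05 and 5.50 for NR4A2 (SE where given, n = 3 libraries per group).

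NR4A1 passed the filter of 1 FPKM in 3 libraries through its 6 DRCC libraries, and NR4A2 through these and 1 AggreWell library. With AggreWell and 2D alone neither passed, so their differences between these formats in PANC-1, 0.36 for NR4A1 and 0.30 for NR4A2, are given without a test; under quantile normalization that of NR4A2 was 0.04. Between the speeds, NR4A1 was higher at 30 rpm than at 1 rpm by 0.62 ± 0.04 (SE; adjusted p = 2.9e-08, limma). NR4A2 was lower at 30 rpm by 0.14 ± 0.05 (adjusted p = 0.031). This NR4A2 call was lost with a pseudocount of 0.1 (adjusted p = 0.24), with no filter (adjusted p = 0.076) and without the first or the third library of either speed, with adjusted p from 0.0033 to 0.1 over the libraries left out.

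In HEK293T the same receptors differed between formats by far less. NR4A1 had 4.75, 4.85 and 4.87 FPKM at 30 rpm, 4.94, 4.99 and 5.04 FPKM at 1 rpm, 3.25, 3.23 and 3.42 FPKM in AggreWell, and 2.6, 2.22 and 2.23 FPKM in 2D. The formats did not overlap. NR4A1 was higher in AggreWell than in 2D by 0.36 ± 0.05 (adjusted p = 1.2e-05), which fell to 0.02 under quantile normalization (adjusted p = 0.73). Between the speeds it differed by -0.04 ± 0.05 (adjusted p = 0.5), with a sign that turned under median-ratio and quantile scaling. NR4A2 had 2.09, 1.85 and 1.74 FPKM at 30 rpm, 2.08, 1.75 and 1.66 FPKM at 1 rpm, 0.764, 0.703 and 0.695 FPKM in AggreWell, and 1.05, 0.861 and 0.731 FPKM in 2D. Its DRCC libraries lay above the others, while the 2 speeds overlapped (0.04 ± 0.07, adjusted p = 0.71), and so did AggreWell and 2D (-0.12, given without a test because NR4A2 passed the filter there through DRCC and 1 library in 2D).

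NR4A3, the third receptor (NOR1), was weak in PANC-1 and did not pass the filter there. Its mean was 0.654 ± 0.148 FPKM at 30 rpm, 0.522 ± 0.0882 FPKM at 1 rpm, 0.124 ± 0.0447 FPKM in AggreWell and 0.0957 ± 0.0101 FPKM in 2D (SD, n = 3 each). The 517 fragments at 30 rpm and 401 at 1 rpm, against 80 in 2D, gave ratios of 6.85 (exact 95% interval 5.4 to 8.78) and 5.48 (4.3 to 7.06), intervals that cover counting error only. In HEK293T, where its level was higher in every format, NR4A3 had 1.34, 1.43 and 1.34 FPKM at 30 rpm, 1.26, 1.24 and 1.14 FPKM at 1 rpm, 1.03, 1.13 and 1.37 FPKM in AggreWell, and 0.895, 1.02 and 0.787 FPKM in 2D. There it was higher in AggreWell than in 2D by 0.19 ± 0.07 (adjusted p = 0.017), a direction that turned under quantile normalization (-0.16) and a call that was lost without the third AggreWell or the third 2D library (adjusted p of 0.0082 to 0.088 over the libraries left out). Between the speeds it differed by 0.10 ± 0.07 (adjusted p = 0.22).

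**Figure D1:**
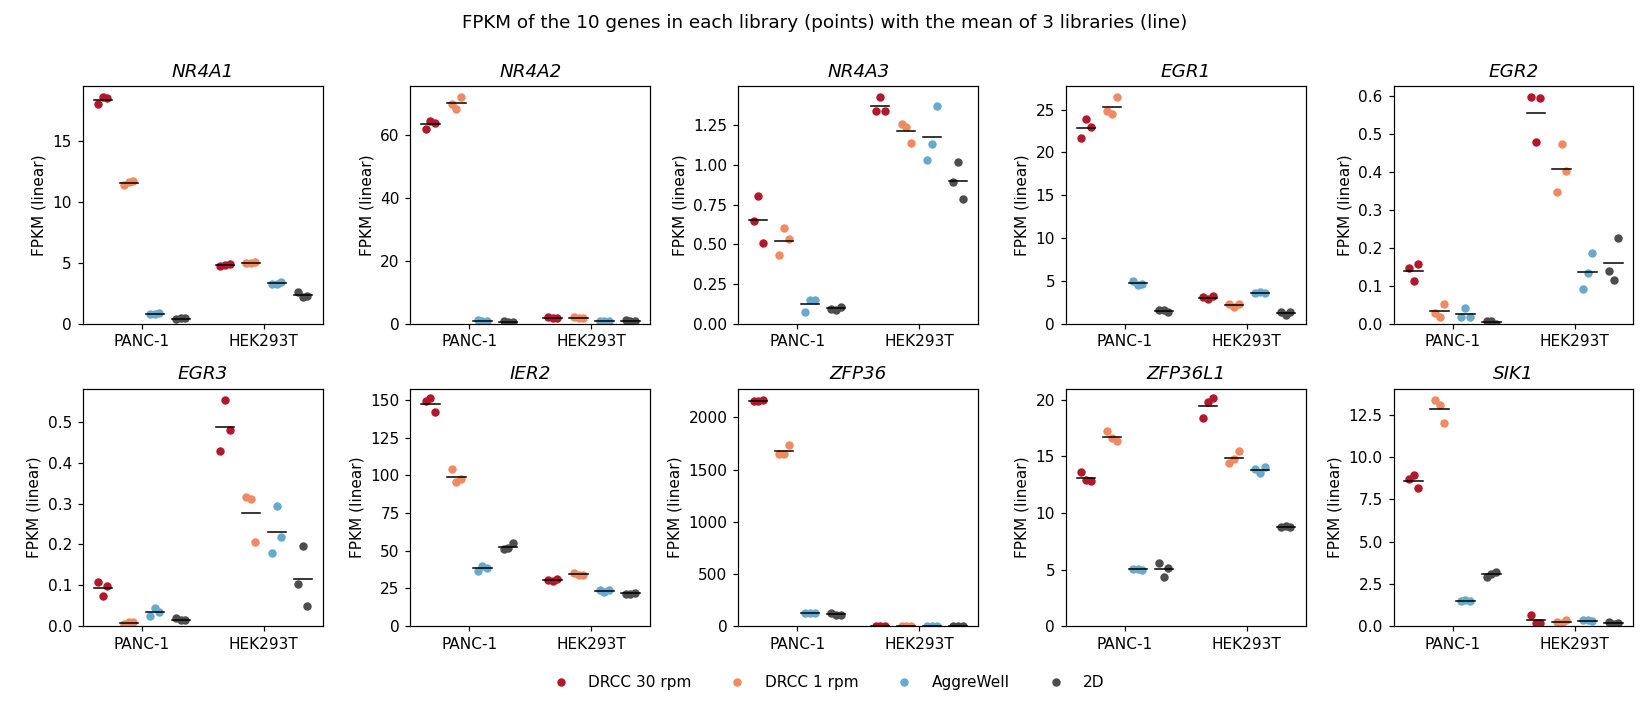
FPKM of the 10 genes in each library of the 8 groups, with the mean of 3 libraries as a line; each panel has its own linear y axis, the x axis gives the line, and colours give the format. NR4A1, NR4A2, EGR1, IER2, ZFP36 and SIK1 stand highest in the 2 DRCC groups of PANC-1, while NR4A3, EGR2, EGR3 and ZFP36L1 reach their highest mean in HEK293T at 30 rpm.

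The makeup of the NR4A family differed with both line and format. In PANC-1 the summed NR4A level was 82.3 FPKM at 30 rpm, 82 at 1 rpm, 1.86 in AggreWell and 1.08 in 2D. NR4A2 made up 76.9%, 85.3%, 50.2% and 53% of that sum, and NR4A1 made up 22.3%, 14.1%, 43.1% and 38.1%, in the same order. In HEK293T the sum was 8.09, 8.03, 5.2 and 4.13 FPKM, and NR4A1 held the largest share in every format, at 59.6%, 62.2%, 63.5% and 57%. The shares are means of 3 libraries and depend on the gene lengths behind the FPKM values. The implied lengths are 8037 bases for NR4A1, 3539 for NR4A2 and 7184 for NR4A3. By fragments in PANC-1, NR4A1 exceeded NR4A2 in AggreWell (750 against 384) and in 2D (380 against 238). NR4A2 led by fragments at 30 rpm (24624 against 16249) and at 1 rpm (26380 against 9909).

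EGR1, a transcription factor that growth signals raise through SRF, was graded over the formats in PANC-1. It had 21.7, 23.9 and 23.0 FPKM at 30 rpm, 24.8, 24.5 and 26.5 FPKM at 1 rpm, 5.03, 4.51 and 4.67 FPKM in AggreWell, and 1.55, 1.64 and 1.32 FPKM in 2D. No libraries overlapped between DRCC, AggreWell and 2D, and the mean was 15.2 times that of 2D at 30 rpm and 16.8 times at 1 rpm. AggreWell lay above 2D by 1.20 ± 0.05 on the log2 scale (adjusted p = 5.3e-10). The 2 speeds differed by -0.14 ± 0.05 (adjusted p = 0.037), a call lost with a pseudocount of 0.1 (adjusted p = 0.082) and without the first or the third library of either speed (0.02 to 0.15 over the libraries left out).

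In HEK293T the order was another. EGR1 had 3.06, 2.91 and 3.17 FPKM at 30 rpm, 2.24, 1.89 and 2.24 FPKM at 1 rpm, 3.55, 3.72 and 3.6 FPKM in AggreWell, and 1.38, 1.03 and 1.34 FPKM in 2D. AggreWell was highest and its libraries overlapped no other format, at 1.04 ± 0.07 above 2D (adjusted p = 1.3e-08). The EGR1 level at 30 rpm was above that at 1 rpm by 0.37 ± 0.07 (adjusted p = 0.00045). Every DRCC library of HEK293T lay below every AggreWell library, at 0.841 and 0.586 times the AggreWell mean at 30 rpm and 1 rpm, while in PANC-1 they lay above it, at 4.83 and 5.34 times.

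EGR2 and EGR3, close relatives of EGR1 that bind the same DNA site, were near the floor in PANC-1 and below the filter in both lines. EGR2 had 17, 13 and 18 fragments in the PANC-1 libraries at 30 rpm, 3, 2 and 6 at 1 rpm, 2, 5 and 2 in AggreWell, and 1, 1 and 0 in 2D. Its ratio to 2D at 30 rpm was 25.4, but with 2 fragments in 2D the exact 95% interval ran from 6.66 to 216. EGR3 had 21, 14 and 19 fragments at 30 rpm, 1, 2 and 2 at 1 rpm, 5, 9 and 7 in AggreWell, and 4, 3 and 3 in 2D. EGR3 was thus the member whose 1 rpm libraries lay below those of 2D in PANC-1, with a ratio of 0.547 (0.147 to 1.76). In HEK293T, EGR2 averaged 0.556, 0.407, 0.137 and 0.159 FPKM and EGR3 averaged 0.488, 0.278, 0.232 and 0.116 FPKM, at 30 rpm, at 1 rpm, in AggreWell and in 2D. EGR1 accordingly made up 98%, 99.6%, 98.2% and 97.8% of the summed EGR level in PANC-1 and 73.9%, 75.1%, 90.7% and 81.5% in HEK293T, in that order.

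IER2 was well expressed in both lines. In PANC-1 it had 149, 151 and 142 FPKM at 30 rpm, 104, 95.6 and 97.8 FPKM at 1 rpm, 36.9, 39.8 and 38.5 FPKM in AggreWell, and 51.4, 51.5 and 54.9 FPKM in 2D. The formats did not overlap, and AggreWell, not 2D, was lowest. IER2 was 2.8 times and 1.88 times as high as in 2D at 30 rpm and at 1 rpm, lower in AggreWell than in 2D by 0.44 ± 0.04 (log2; adjusted p = 3e-07), and higher at 30 rpm than at 1 rpm by 0.57 ± 0.04 (adjusted p = 3.8e-08). In HEK293T it had 30.9, 29.9 and 31.2 FPKM at 30 rpm, 35.2, 34.1 and 34.2 FPKM at 1 rpm, 23.9, 22.8 and 24 FPKM in AggreWell, and 21.5, 21.5 and 22.2 FPKM in 2D. There the slower speed was the higher, with a difference of -0.17 ± 0.03 between 30 rpm and 1 rpm (adjusted p = 0.00055). AggreWell exceeded 2D by 0.11 ± 0.03 (adjusted p = 0.0042), but median-ratio scaling gave -0.11 (adjusted p = 0.0062), so this direction depends on the scaling.

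ZFP36, the mRNA decay factor also called tristetraprolin, was the most abundant member in PANC-1 and a weak member in HEK293T. It had 2155, 2156 and 2169 FPKM at 30 rpm, 1648, 1649 and 1733 FPKM at 1 rpm, 129, 131 and 126 FPKM in AggreWell, and 129, 109.8 and 105 FPKM in 2D. These levels were 0.377%, 0.293%, 0.0225% and 0.0201% of all fragments in the same order, and the mean was 18.8 times that of 2D at 30 rpm and 14.6 times at 1 rpm. The DRCC libraries stood apart from the rest and from each other, with 30 rpm above 1 rpm by 0.37 ± 0.05 (log2; adjusted p = 4.8e-05). AggreWell and 2D libraries overlapped: the difference of 0.17 ± 0.05 (adjusted p = 0.013) turned to -0.02 under median-ratio scaling and was not called without the second or the third 2D library (adjusted p of 3.6e-06 to 0.068 over the libraries left out).

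ZFP36 levels in HEK293T were 3.79, 3.25 and 4.22 FPKM at 30 rpm, 5.12, 4.38 and 4.89 FPKM at 1 rpm, 3.14, 3.15 and 3.53 FPKM in AggreWell, and 2.99, 2.59 and 2.38 FPKM in 2D. There 30 rpm was below 1 rpm by 0.29 ± 0.08 on the log2 scale (adjusted p = 0.0099). AggreWell was above 2D by 0.23 ± 0.08 (adjusted p = 0.023), which turned to -0.11 under quantile normalization and was not called without the third AggreWell, the second 2D or the third 2D library (adjusted p of 0.0082 to 0.097).

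ZFP36L1, a paralogue with the same kind of RNA-binding domain, was expressed in both lines. In PANC-1 it had 13.6, 12.9 and 12.8 FPKM at 30 rpm, 17.2, 16.6 and 16.4 FPKM at 1 rpm, 5.01, 5.04 and 5.0 FPKM in AggreWell, and 5.54, 4.39 and 5.16 FPKM in 2D. Unlike ZFP36 it was lower at 30 rpm than at 1 rpm, by 0.34 ± 0.06 on the log2 scale (adjusted p = 0.00014), and AggreWell and 2D overlapped, with a difference of 0.0015 ± 0.06 (adjusted p = 0.98) that was -0.16 under both other scalings (adjusted p of 0.033 and 0.022). In HEK293T it had 18.4, 19.8 and 20.2 FPKM at 30 rpm, 14.4, 14.8 and 15.5 FPKM at 1 rpm, 13.9, 13.5 and 14.1 FPKM in AggreWell, and 8.74, 8.83 and 8.73 FPKM in 2D. The 4 formats did not overlap there; 30 rpm was above 1 rpm by 0.37 ± 0.04 (adjusted p = 9.4e-06), and AggreWell was above 2D by 0.60 ± 0.04 (adjusted p = 1.6e-08).

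Within the ZFP36 family, ZFP36 itself made up 98.3%, 98%, 85% and 82.1% of the summed level in PANC-1 at 30 rpm, at 1 rpm, in AggreWell and in 2D. In HEK293T it made up 9.3%, 11.4%, 9.16% and 8.55%. ZFP36L2, the other paralogue, held 42.5%, 53.2%, 52.1% and 63.2% of the HEK293T sum, and ZFP36L1 held 48.2%, 35.4%, 38.7% and 28.3%. The sum itself was 2197, 1711, 152 and 139.7 FPKM in PANC-1 and 40.4, 42.1, 35.7 and 31 FPKM in HEK293T.

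**Figure D2:**
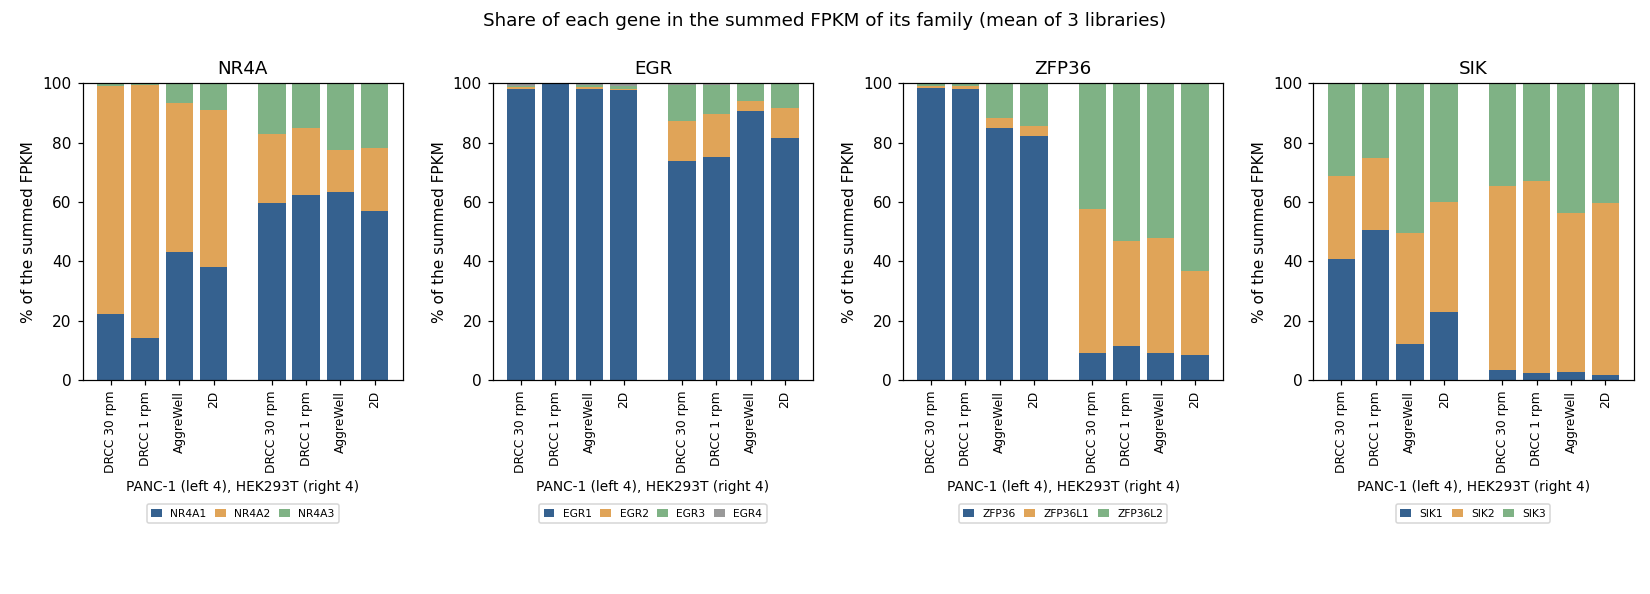
Stacked bars of the share of each gene in the summed FPKM of its family (y axis, %), as the mean of 3 libraries, for the 4 formats of PANC-1 and of HEK293T (x axis). NR4A2 fills 76.9% of the NR4A bar in PANC-1 at 30 rpm against 53% in 2D, and ZFP36 fills over 82% of the ZFP36 bar in each PANC-1 format but at most 11.4% in HEK293T.

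SIK1 was highest at the slower speed in PANC-1. It had 8.74, 8.94 and 8.15 FPKM at 30 rpm, 13.4, 13.1 and 12 FPKM at 1 rpm, 1.47, 1.55 and 1.5 FPKM in AggreWell, and 2.92, 3.1 and 3.18 FPKM in 2D. The 4 formats did not overlap, and AggreWell was lowest. The mean was 2.8 times that of 2D at 30 rpm and 4.18 times at 1 rpm. SIK1 was lower in AggreWell than in 2D by 0.70 ± 0.05 on the log2 scale (adjusted p = 2.6e-08) and lower at 30 rpm than at 1 rpm by 0.53 ± 0.05 (adjusted p = 5.3e-07). Its share in the summed SIK level of PANC-1 was 40.9%, 50.4%, 12.1% and 23% at 30 rpm, at 1 rpm, in AggreWell and in 2D. In HEK293T the gene was below the filter, at 0.184 to 0.653 FPKM at 30 rpm, 0.19 to 0.373 FPKM at 1 rpm, 0.298 to 0.348 FPKM in AggreWell and 0.146 to 0.266 FPKM in 2D. The first 30 rpm library of HEK293T held 102 SIK1 fragments, and the other two held 29 and 30. SIK1 has a near-identical copy, SIK1B, with no row in the table, so its reads may have been divided or dropped in counting and its level is uncertain.

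**Figure D3:**
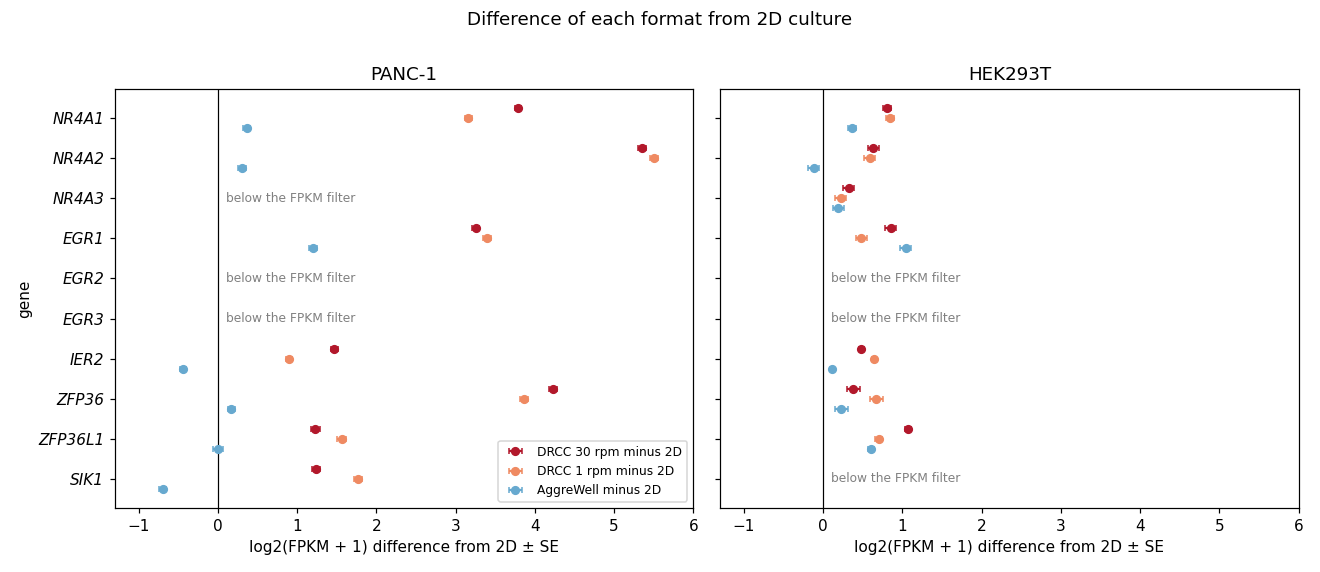
Difference of each format from 2D in log2(FPKM + 1), with the standard error of the fit (x axis), for the genes that passed the filter (y axis) in PANC-1 on the left and HEK293T on the right. In PANC-1 the DRCC values run up to 5.50 for NR4A2 while the AggreWell values run between -0.70 for SIK1 and 1.20 for EGR1; in HEK293T the values stay at or under 1.07.

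Read over the whole set, 7 of 10 members passed the filter in each line (NR4A3, EGR2 and EGR3 did not in PANC-1, and EGR2, EGR3 and SIK1 did not in HEK293T). For the contrasts that chose them, all 10 members had every library at 30 rpm above every 2D library in PANC-1, where 35.9% of the 23743 genes with any fragment in the line did, and 9 of 10 did at 1 rpm, where 35.3% of these genes did, with EGR3 below. In HEK293T 9 of 10 members lay wholly above 2D at 30 rpm, where 34.2% of the 24308 genes with any fragment did, and 9 of 10 at 1 rpm, where 38.4% did; SIK1 overlapped in both. Since these contrasts were known when the set was chosen, the counts are a description and nothing is read from them. On the log2 scale NR4A3 in HEK293T, at 0.32 and 0.22 above 2D for 30 rpm and 1 rpm, was the member whose direction turned under quantile normalization (-0.01 and -0.21).

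When AggreWell was set against 2D in PANC-1, 5 members passed a filter on these 2 formats alone; 2 were called higher (EGR1 and ZFP36) and 2 lower (IER2 and SIK1). With NR4A1 and NR4A2, which passed through DRCC libraries, 4 of 7 were higher and 2 lower, where 45.9% of 11585 genes were called higher and 24.1% lower. The 7 members had a median difference of 0.17, against 0.098 for all genes. In HEK293T 6 of 6 were higher and 0 lower with the filter on these formats, and 6 of 7 with NR4A2, where 48.6% of 12548 genes were higher and 26.8% lower; the median of the 7 was 0.23 against 0.116 for all genes. Under median-ratio and quantile scaling, 3 of the 7 higher and 3 lower were called in PANC-1, and 3 higher and 2 lower in HEK293T. These counts include NR4A1 and NR4A2 in PANC-1 and NR4A2 in HEK293T, so they are a description. Apart from NR4A2, IER2 in HEK293T was called lower under median-ratio scaling (-0.109, adjusted p = 0.0062). NR4A3 was called lower there under quantile normalization (-0.16, adjusted p = 0.04), so the lean of the set in HEK293T rests on the scaling. EGR1 was called higher in both lines under each scaling.

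For 30 rpm against 1 rpm in PANC-1, 3 of 7 members were called higher (NR4A1, IER2 and ZFP36) and 4 lower (NR4A2, EGR1, ZFP36L1 and SIK1), where 36.2% of genes were higher and 31.9% lower. With a pseudocount of 0.1 the count lower was 2. In HEK293T 2 of 7 were higher (EGR1 and ZFP36L1), 2 lower (IER2 and ZFP36) and 3 not called, where 19.6% of genes were higher and 32.9% lower. With 7 members tested, these shares lie near those of all genes, and no direction common to the set is read from them. The comparisons with 2D share the 2D libraries, and those between speeds share libraries with the DRCC contrasts that chose the set.

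The difference between PANC-1 and HEK293T in how 30 rpm differed from 1 rpm was called for 6 of 8 tested members, 3 in each direction. Of all 13392 genes, 63.2% were called, 5069 higher and 3392 lower, so nothing particular to the set is read from the count. The line difference was 0.73 ± 0.05 for IER2 (adjusted p = 1e-10), 0.67 ± 0.06 for NR4A1 (adjusted p = 3.3e-09) and 0.66 ± 0.10 for ZFP36 (adjusted p = 1.2e-05). It was -0.70 ± 0.07 for ZFP36L1 (adjusted p = 3e-08), -0.60 ± 0.12 for SIK1 (adjusted p = 0.00027) and -0.51 ± 0.09 for EGR1 (adjusted p = 3.2e-05). IER2, ZFP36, ZFP36L1 and EGR1 were called in opposite directions in the lines. SIK1 rests on a level under 1 FPKM in HEK293T, and its call was lost with a pseudocount of 0.1 and with voom (adjusted p of 0.079 and 0.084; 8e-05 to 0.0011 with 1 library left out). NR4A2 (-0.18, adjusted p = 0.1) and NR4A3 (0.02, adjusted p = 0.88) were not called, and the sign for NR4A3 turned under both other scalings. The NR4A2 difference was called under quantile normalization (-0.403, adjusted p = 0.0017) and without mitochondrially encoded genes (-0.293, adjusted p = 0.01). With the replicate block it was also called (adjusted p = 0.034), so whether NR4A2 is called depends on the setting.

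For AggreWell against 2D the line difference was called for 4 of 8 members, 1 higher and 3 lower. Of all 13392 genes tested, 57% were called, 3342 higher and 4290 lower. With the filter on the groups compared, 7 members were tested, 0 higher and 3 lower. NR4A2, the member that this filter removed, had a difference of 0.42, given as a value only. IER2 differed by -0.56 ± 0.05 (adjusted p = 8.4e-09), ZFP36L1 by -0.60 ± 0.07 (adjusted p = 3.6e-07) and SIK1 by -0.85 ± 0.12 (adjusted p = 6e-06). EGR1, which was higher in AggreWell in both lines, differed by 0.15 (adjusted p = 0.14). Under median-ratio scaling the EGR1 difference was called (0.219, adjusted p = 0.044), and with 1 library left out adjusted p ran from 0.021 to 0.34. NR4A1 gave -0.0028 (adjusted p = 0.97), but 0.365 with a pseudocount of 0.1 (adjusted p = 0.0037) and 0.499 with voom (adjusted p = 0.0055); its 2D level in PANC-1 was under 1 FPKM. ZFP36 (-0.06, adjusted p = 0.65) and NR4A3 (-0.16, adjusted p = 0.15) were not called, and both turned sign under quantile normalization. There ZFP36 was called higher in PANC-1 (0.414, adjusted p = 0.0037), while NR4A3 was not called (0.102, adjusted p = 0.35).

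**Figure D4:**
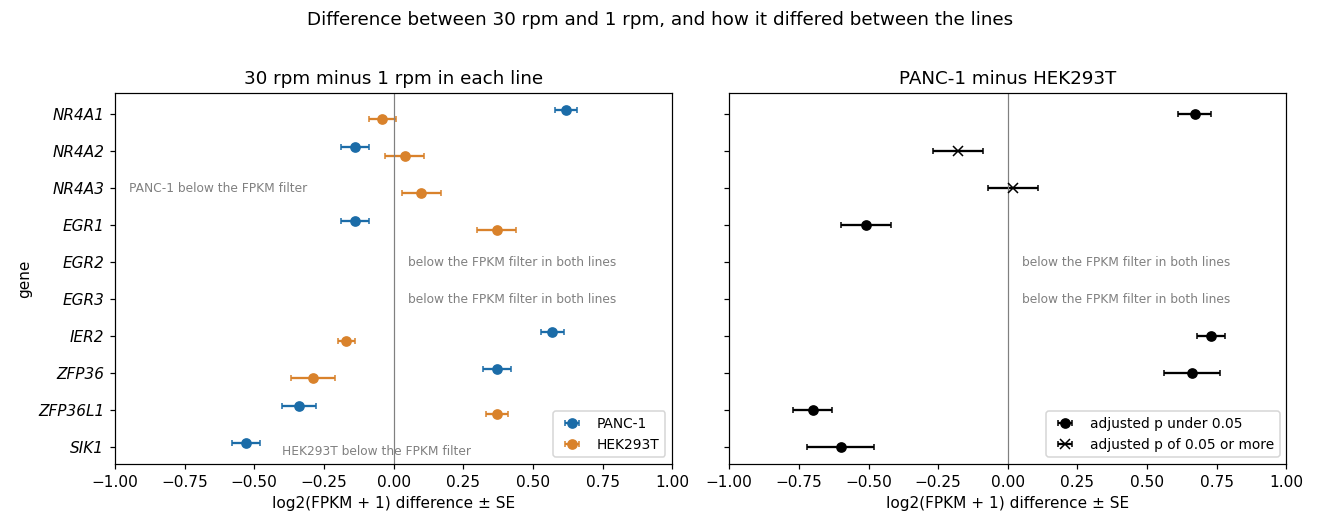
Difference between 30 rpm and 1 rpm in log2(FPKM + 1) with its standard error (x axis) for each gene (y axis), within PANC-1 and HEK293T on the left and as PANC-1 minus HEK293T on the right. IER2, NR4A1 and ZFP36 lie to the right in the second panel, at 0.66 to 0.73, and EGR1, SIK1 and ZFP36L1 to the left, at -0.51 to -0.70.

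Of 15 relatives and partners, 14 had a row and 13 were tested. In PANC-1, 13 of 13 were called higher at 30 rpm than in 2D and 10 at 1 rpm, with 2 lower, where 53.6% and 52.3% of all genes were higher and 32.2% and 33.9% lower. Under median-ratio scaling 7 were higher and 0 lower at 30 rpm, and 6 higher and 3 lower at 1 rpm. RXRB, a dimer partner of NR4A1 and NR4A2, averaged 28.5, 32.5, 11.5 and 10.6 FPKM at 30 rpm, at 1 rpm, in AggreWell and in 2D, and CRTC2, the CREB coactivator that SIK1 restrains, averaged 20.9, 20.6, 9.66 and 9.89 FPKM. NAB2, a corepressor of EGR1, averaged 16.9, 12.3, 10.7 and 7.34 FPKM in PANC-1 and 20.3, 20.3, 14.6 and 11.9 FPKM in HEK293T. RXRA averaged 5.65, 5.28, 6.32 and 4.9 FPKM in PANC-1, highest in AggreWell. In HEK293T it averaged 6.33, 7.85, 8.51 and 9.38 FPKM, highest in 2D. CRTC1 averaged 1.7, 1.72, 1.98 and 1.33 FPKM in PANC-1, also highest in AggreWell. NAB1 averaged 16.6, 17.5, 17.3 and 13 FPKM there, and CRTC3 averaged 7.34, 7.25, 6.28 and 5.95 FPKM. IER5L, a relative of IER2, ran opposite ways in the lines, at 36.3, 22.7, 14.1 and 8.06 FPKM in PANC-1 and 3.77, 5.76, 6.04 and 7.53 FPKM in HEK293T. In HEK293T, 7 relatives were higher and 5 lower at 30 rpm, and 9 higher and 3 lower at 1 rpm, against 2D, where 49.6% and 53.1% of genes were higher and 35.5% and 31.7% lower. Under median-ratio scaling the HEK293T count at 1 rpm was 4 higher and 5 lower. For AggreWell against 2D, 7 were higher and 3 lower in PANC-1, and 6 higher and 2 lower in HEK293T (45.9% and 24.1%, and 48.6% and 26.8%, of all genes), which became 5 higher and 6 lower, and 1 higher and 7 lower, under median-ratio scaling. Between the speeds, 5 were higher and 1 lower at 30 rpm in PANC-1 (36.2% and 31.9% of all genes), and 1 higher and 8 lower in HEK293T (19.6% and 32.9%).

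The 9 upstream factors, SRF with its partners and the CREB family, were called in both directions in PANC-1. At 30 rpm 3 were higher and 5 lower than in 2D (53.6% and 32.2% of all genes), and at 1 rpm 2 were higher and 4 lower (52.3% and 33.9%). SRF averaged 17.6, 14.3, 15.4 and 21.8 FPKM and its coactivator MRTFA 4.34, 5.39, 5.62 and 9.25 FPKM at 30 rpm, at 1 rpm, in AggreWell and in 2D, both highest in 2D. CREM, a CREB relative, averaged 3.28, 3.17, 1.74 and 1.82 FPKM in PANC-1 and 4.65, 4.61, 3.05 and 2.88 FPKM in HEK293T, higher in DRCC than in 2D in both lines. CREB1 itself averaged 2, 1.65, 3.15 and 2.45 FPKM in PANC-1, lower in DRCC than in 2D and highest in AggreWell. In HEK293T it averaged 2.83, 3.14, 3.74 and 2.31 FPKM, again highest in AggreWell. In HEK293T 6 of the 9 were higher and 1 lower at 30 rpm than in 2D (49.6% and 35.5% of all genes), and 7 higher and 1 lower at 1 rpm (53.1% and 31.7%). ELK4, an ETS partner of SRF, had the largest difference among them, with 10.4, 11.3, 4.1 and 1.64 FPKM in HEK293T. For AggreWell against 2D the counts were 3 higher and 3 lower in PANC-1, where 45.9% and 24.1% of all genes were, and 5 higher and 2 lower in HEK293T, where 48.6% and 26.8% were (3 higher and 4 lower under quantile normalization). Between the speeds they were 3 higher and 3 lower in PANC-1 (36.2% and 31.9% of all genes) and 0 higher and 3 lower in HEK293T (19.6% and 32.9%). With 9 genes, nothing particular to the list is read from these counts.

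Beyond the 10 genes, 47 other immediate early genes all had a row. Like the other gene lists here, this list was chosen with earlier results of these data known. The counts and medians of these lists for DRCC against 2D are therefore a description. In PANC-1, 34 of 42 tested were called higher and 6 lower at 30 rpm than in 2D, and 33 higher and 8 lower at 1 rpm, where 53.6% and 52.3% of all genes were higher and 32.2% and 33.9% lower. The list medians were 1.34 and 0.92, against 0.173 and 0.152 for all genes. PER1, a clock gene that CREB raises, averaged 85.4 FPKM at 30 rpm and 144 at 1 rpm, against 3.84 in 2D. FOS, the AP-1 subunit, averaged 18.2 FPKM at 30 rpm and 4.1 at 1 rpm, against 0.224 in 2D, and DUSP1, a phosphatase of MAP kinases, averaged 343 FPKM at 30 rpm against 37.3 in 2D. CCN2, a matricellular target of YAP and SRF, went the other way, at 19.2 FPKM at 30 rpm and 7.96 at 1 rpm, against 74.7 in 2D. In HEK293T, 30 of 38 were higher and 4 lower at 30 rpm, and 31 higher and 5 lower at 1 rpm, where 49.6% and 53.1% of all genes were higher and 35.5% and 31.7% lower, with medians of 0.87 and 0.75 against 0.127 and 0.184. The leading genes there were ATF3, a stress-induced factor of the CREB family (179 and 127 FPKM at the 2 speeds, against 12.7 in 2D), and JUN, the partner of FOS in AP-1 (601 and 482 FPKM, against 84.4 in 2D).

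In this list 11 of the 42 PANC-1 genes were called higher and 23 lower in AggreWell than in 2D, where 45.9% of all genes were higher and 24.1% lower, with a median of -0.18 against 0.098 for all genes. FOS was higher, at 4.14 against 0.224 FPKM (2.07 ± 0.05, adjusted p = 1.4e-12), and CCN2 (20.6 against 74.7 FPKM, -1.81, adjusted p = 3.8e-13), its relative CCN1 (121 against 361 FPKM, -1.57) and FOSL1 (104 against 209 FPKM) were lower. In HEK293T, 30 of 38 were higher and 2 lower, where 48.6% of genes were higher and 26.8% lower, with a median of 0.38 against 0.116. Those counts were 22 higher and 5 lower under median-ratio scaling and 18 higher and 5 lower under quantile normalization, and in PANC-1 6 higher and 29 lower under each. FOS (7.96 against 0.981 FPKM, 2.18, adjusted p = 4e-11), ATF3 (46.7 against 12.7 FPKM) and JUN (251 against 84.4 FPKM) led in HEK293T. The difference between the lines was called for 37 of 43 genes, 2 higher and 35 lower in PANC-1, with a median of -0.56 against -0.029 for all genes. Of all 13392 genes tested, 57% were called, 3342 higher and 4290 lower.

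With rotation speed, 30 of the 42 were higher and 9 lower at 30 rpm than at 1 rpm in PANC-1, where 36.2% of all genes were higher and 31.9% lower, with a median of 0.51 against 0.017 for all genes. RHOB, a small GTPase (48.4 against 11.6 FPKM, 1.98, adjusted p = 4.5e-13), FOS (1.91) and KLF2, a factor known to respond to shear stress in endothelium (13.9 against 3.2 FPKM, 1.83), had the largest rises. NFKBIA, the inhibitor of NF-kB (20.9 against 57.6 FPKM, -1.42, adjusted p = 2.8e-11), the chemokine gene CXCL1 (1.2 against 4.02 FPKM, -1.19) and TNFAIP3 (-1.05) had the largest falls. In HEK293T, 16 of 38 were higher and 6 lower (19.6% and 32.9% of all genes), with a median of 0.13 against -0.041, and RHOB again led (404 against 225 FPKM, 0.84). The line difference was called for 25 genes in the higher and 10 in the lower direction of 43. Of all 13392 genes tested, 63.2% were called in either, 5069 higher and 3392 lower.

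**Figure D5:**
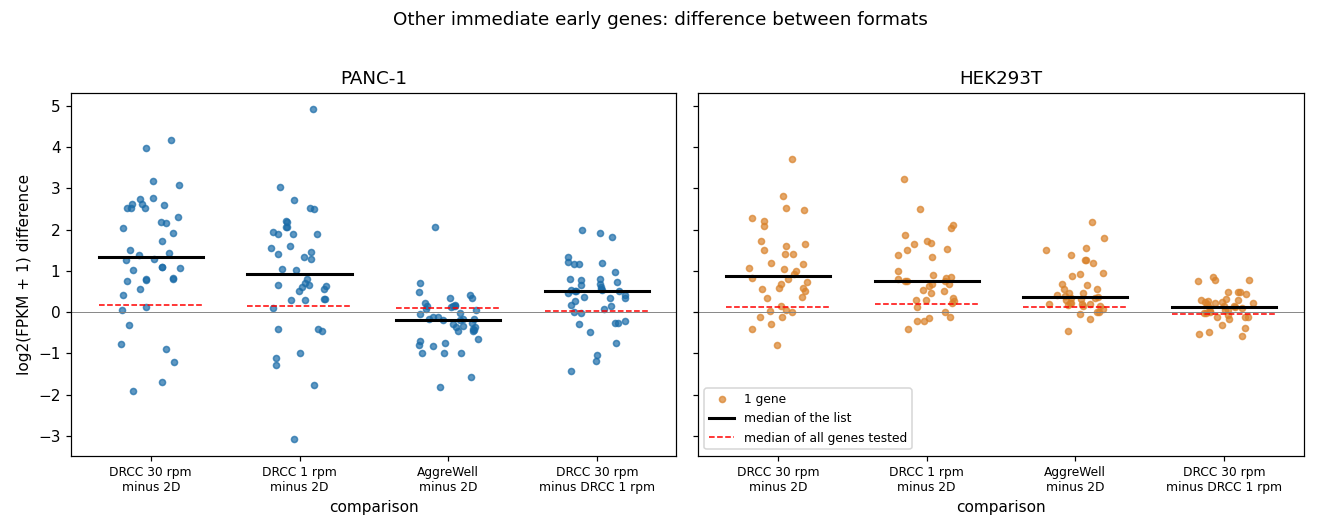
Difference in log2(FPKM + 1) of each of the other immediate early genes tested (points, y axis) in 4 comparisons of formats (x axis), with the median of the list (black) and of all genes tested (red), in PANC-1 and HEK293T. In AggreWell against 2D the list median lies at -0.18 in PANC-1 and 0.38 in HEK293T, while in the DRCC comparisons with 2D it lies between 0.75 and 1.34 in both lines.

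The ERK feedback genes, which ERK signalling raises and some of which damp it, were counted as a further readout of the pathway. Of 11 in PANC-1, 8 were higher and 2 lower at 30 rpm than in 2D, where 53.6% of all genes were higher and 32.2% lower. At 1 rpm 5 were higher and 3 lower (5 and 6 under median-ratio scaling), which is near the 52.3% and 33.9% of all genes. In AggreWell 1 was higher and 6 lower, where 45.9% and 24.1% of all genes were. SPRY4, an inhibitor of the pathway, averaged 56 and 53.4 FPKM at 30 rpm and 1 rpm, against 21.9 FPKM in 2D. At 30 rpm 9 of 11 were above 1 rpm and 1 below, where 36.2% of all genes were higher and 31.9% lower. In HEK293T, of 8 tested, 6 were higher and 1 lower than in 2D at each speed, where 49.6% and 53.1% of genes were higher and 35.5% and 31.7% lower at 30 rpm and 1 rpm. In AggreWell 1 was higher and 0 lower than in 2D (1 and 5 under quantile normalization), where 48.6% and 26.8% of genes were, and 1 was higher and 1 lower at 30 rpm against 1 rpm, where 19.6% and 32.9% were.

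The mRNAs that ZFP36 proteins are known to bind were called in both directions. Of 10 tested in PANC-1, 6 were higher and 2 lower at 30 rpm than in 2D, near the 53.6% and 32.2% of all genes, and 8 higher and 2 lower at 1 rpm, where 52.3% and 33.9% were. Between the speeds, 6 were higher and 4 lower at 30 rpm, where 36.2% and 31.9% of all genes were. MYC averaged 179.8 FPKM at 30 rpm against 90.5 at 1 rpm (0.98), whereas the cytokine mRNAs TNF (0.0542 against 1.43 FPKM, -1.20) and CXCL2 (0.22 against 2.07 FPKM, -1.33) were lower at 30 rpm. TNF and CXCL2 passed the filter through the 1 rpm libraries alone, so their differences between 1 rpm and the other formats are values only. Both are among the 8 counted higher at 1 rpm and the 4 counted lower at 30 rpm. In AggreWell 1 was higher and 5 lower than in 2D, where 45.9% and 24.1% of all genes were. In HEK293T, with 6 tested, 5 were higher and 1 lower than in 2D at each speed, where 49.6% and 53.1% of genes were higher and 35.5% and 31.7% lower at 30 rpm and 1 rpm. AggreWell gave 3 higher and 2 lower than 2D (1 and 4 under quantile normalization), where 48.6% and 26.8% of genes were, and 0 were higher and 2 lower at 30 rpm against 1 rpm, where 19.6% and 32.9% were. Some genes, such as MYC and CXCL1, are in this list and in that of the other immediate early genes.

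Over the 24 libraries, with each line centred, the non-member genes whose log2(FPKM + 1) ran most like NR4A2 were NR1D1, with a Pearson r of 0.995, HDAC5 (0.989), PER1 (0.989), ZNF516 (0.986) and HOXB9 (0.985). NR1D1, a nuclear receptor of the circadian clock, averaged 55.9, 63.5, 3.63 and 4.15 FPKM in PANC-1 at 30 rpm, at 1 rpm, in AggreWell and in 2D. For ZFP36 the nearest were HDAC5, NR1D1 and MAP1LC3B (0.985 each), HOXB9 and MAN2B1 (0.983 each). The genes nearest to EGR1 were ANKZF1 (0.987), SLC44A2 (0.984), NISCH (0.980), PLD2 (0.979) and NKAP (0.977), and those nearest to SIK1 were SLC20A1 (0.970), TMEM39A (0.966), MVD (0.965), STAT3 (0.960) and MCL1 (0.957). Among the members, NR4A2 and ZFP36 had an r of 0.992, ZFP36 and NR4A1 0.990, and EGR1 and NR4A2 0.924. The libraries fall into 8 groups, so these values describe likeness over the groups, where the step between DRCC and the rest in PANC-1 weighs most.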

How the data were processed

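RNA of 24 libraries, 3 in each of 8 groups of line and format, was analysed, with groups and replicate numbers taken from the labels. Per the labels' protocols, TRIzol and a VAHTS Universal V10 kit were used. The sources used here do not say whether strand was kept, so antisense or overlapping genes (NR4A1, EGR3 and IER2 have such partners) cannot be separated. The authors deposited FPKM values of 26450 genes. The tools were HISAT2, HTSeq, fastp and R 3.2.0, per the submitters' processing notes, which give no roles. The notes name the mouse build mm10, but 24866 of the symbols are human RefSeq symbols, so no coordinates were taken from the table; promoters come from RefSeq (GRCh38.p14). Whole fragments were recovered from the FPKM steps for 26449 genes (tolerance 0.01), giving 32555333 to 39556154 per library. FPKM is relative to each library's total, so abundant genes shift all others.

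Values were tested as log2(FPKM + 1) with limma 3.58.1 in R 4.3.3 (variance trend) on genes with at least 1 FPKM in at least 3 libraries: 11585 in PANC-1, 12548 in HEK293T, and 13392 for line differences (all libraries, interaction). Adjusted p is Benjamini-Hochberg over all genes tested, and genes under 0.05 were called. Python 3.11.15 with pandas 2.3.3 made tables and figures. The fits were tested on simulated data. The members and gene lists were chosen with earlier results of these data known. All members, relatives and upstream factors may be named, as may the up to 4 largest rises and falls of each other list per comparison and the 5 nearest genes by correlation. The labels do not call replicates separate cultures, and p-values therefore measure the spread between libraries, which may be technical; no pair agreed within counting noise (chi-square per gene of 2.81 to 9.86). Alternatives were another pseudocount, other filters, median-ratio and quantile scaling, the compared groups alone, a replicate block, voom on recovered fragments, mitochondrially encoded genes left out, and each library left out.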

Additional observations from a re-analysis of the deposited data

Results flagged for a closer look

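The difference between the lines in the effect of a format was called for 4 of 8 members for AggreWell against 2D, where 57% of all genes were called. For 30 rpm against 1 rpm it was called for 6 of 8, where 63.2% of all genes were. The 4 for AggreWell include NR4A2, which is not counted as tested. For AggreWell against 2D, the PANC-1 minus HEK293T difference in log2 change was 0.42 for NR4A2, -0.56 for IER2, -0.60 for ZFP36L1 and -0.85 for SIK1. NR4A2 passed the filter through DRCC libraries and had no test with the groups compared alone, so its value is a description. IER2 was lower in PANC-1 and higher in HEK293T. For 30 rpm against 1 rpm, the difference was 0.67 for NR4A1, 0.73 for IER2 and 0.66 for ZFP36, and -0.51 for EGR1, -0.70 for ZFP36L1 and -0.60 for SIK1. The SIK1 call for speed was lost with a pseudocount of 0.1 (adjusted p = 0.079) and with voom (adjusted p = 0.084).

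In 3 further results every library of 1 line moved opposite to those of the other, and the difference was not tested. EGR1 was higher in DRCC than in AggreWell in PANC-1 and lower in HEK293T, by a line difference in log2 change of 2.2 at 30 rpm and 2.8 at 1 rpm. EGR3 was lower at 1 rpm than in 2D in PANC-1, on 5 and 10 fragments, and higher in HEK293T, by a line difference of -0.21.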

How the results depend on the processing

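Over 44 results, 341 values kept direction and call under the alternatives other than leaving out a library, 13 lost their call, 7 gained one and 17 turned sign; with 1 library left out the numbers were 689, 15, 2 and 14. The causes were not tested unless stated. Requiring a mean FPKM of at least 5 tested fewer genes and called 6569 genes at 1 rpm and 6519 at 30 rpm against 2D, and 6294 and 6381 against AggreWell, in PANC-1; 7049 and 7104 against 2D and 6563 for 30 rpm against AggreWell in HEK293T; and 4919 and 5590 for the line differences in AggreWell and in speed. In HEK293T it left 2 members, both called, for AggreWell against 2D, and 2 between the speeds.

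Signs turned as follows, in log2 units. For AggreWell against 2D in PANC-1, ZFP36 was -0.0216 under median-ratio scaling, and ZFP36L1 was -0.161 under median-ratio scaling, -0.164 under quantile normalization and -0.0767 to 0.0625 with a library left out. In HEK293T, NR4A3 was -0.16 and ZFP36 -0.109 under quantile normalization, and IER2 -0.109 under median-ratio scaling. Between the speeds in HEK293T, NR4A1 was 0.0317 and 0.039 under median-ratio and quantile scaling, and NR4A2 -0.013 to 0.098 with a library left out. The line difference for AggreWell was, for NR4A1, 0.365 with a pseudocount of 0.1, 0.105 and 0.125 under median-ratio and quantile scaling, 0.499 with voom and -0.0555 to 0.0247 with a library left out; for NR4A3 0.102 and for ZFP36 0.414 under quantile normalization, and -0.123 to 0.0285 for ZFP36 with a library left out. The line difference for speed was, for NR4A3, -0.00477, -0.133 and -0.0301 under median-ratio scaling, quantile normalization and without mitochondrially encoded genes, and -0.047 to 0.0819 with a library left out.

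Scaling moved the split of calls. Calls higher and lower for AggreWell against 2D were 3336 and 4957 in PANC-1 and 4022 and 5569 in HEK293T under median-ratio scaling, against 5322 and 2788, and 6099 and 3359, as deposited; the median of all genes moved by -0.156 and -0.192. For 30 rpm against 1 rpm they were 2943 and 5063 in PANC-1 without mitochondrially encoded genes, and 3879 and 2725 in HEK293T under median-ratio scaling. Against 2D, median-ratio scaling gave 4709 and 5202 at 30 rpm and 4602 and 5257 at 1 rpm in PANC-1, and 4938 and 5678, and 4798 and 5790, in HEK293T, with a largest median move of -0.25 in HEK293T at 1 rpm. The line difference for speed split into 4056 and 4400 under quantile normalization, against 5069 and 3392.

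Same-numbered deviations correlated at -0.092 to 0.106 in PANC-1 (median -0.03, against 0.016 for different numbers) and -0.097 to 0.43 in HEK293T (median 0.072, against -0.036), so the numbers were not taken as pairs throughout. In HEK293T at 1 rpm against 2D every same-numbered pair was over 0.1 (0.158, 0.43 and 0.145). With the replicate block there, the calls over all genes were 6738 higher and 4020 lower, against 6666 and 3976. With the replicate number as a block, EGR1 between the speeds in PANC-1 stayed at -0.139 (adjusted p = 0.055) and the line difference of NR4A2 in speed at -0.178 (adjusted p = 0.034). Depth limits EGR2, EGR3 and PANC-1 NR4A3.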
